A study of Mus musculus with 2 samples.

Results

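Cycling regulatory T cells were selected on measured RNA, as tumour T cells that held at least 1 UMI of Foxp3, no UMI of Cd8a or Cd8b1, and at least 1 UMI of Mki67 or Top2a. A UMI (unique molecular identifier) stands for 1 captured RNA molecule. Of 10713 cells that had at least 500 genes, at most 10% mitochondrial UMIs and 1 hashtag with at least 80% of their hashtag UMIs, 183 met this gate. They are set against 334 resting regulatory T cells (Treg) of the same mice, with Foxp3, no Cd8a or Cd8b1 and neither cycle gene, and against 305 cycling CD8 cells, which held Cd8a or Cd8b1, no Foxp3, and Mki67 and Top2a together. Resting CD8 cells, 5566 in number, enter 1 comparison.

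The cells came from melanoma tumours of C57BL/6J mice, 4 treated with the bacterium Lactobacillus reuteri (LR mice 1 to 4) and 4 given PBS (PBS mice 6 to 9). All carried a tumour, and no tumour-free or naive mice were analysed here; the sources used here give no age, sex or tumour line. Per the labels' protocols, CD90.2+ cells of each tumour were tagged with a hashtag antibody, live CD8+ cells were sorted, cells of a condition were combined, and all 8 mice shared 1 lane of a droplet 5′ kit. The cell type label, however, names CD3+ T cells, and which of the sorts was used was not settled here. Treatment and handling after the sort therefore cannot be told apart. The mouse was the replicate throughout, and levels are CPM, UMIs per 1000000 UMIs of that class in that mouse.

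Foxp3 encodes the transcription factor that defines Treg, CD4 T cells that hold other immune responses in check through receptors such as CTLA-4 and through high use of interleukin-2. In tumours these cells often divide. Mki67 and Top2a encode a chromosome-coating protein and topoisomerase II alpha, both made mainly from S phase to mitosis. On the way there, E2F factors switch on genes for DNA synthesis, and the DREAM and MuvB complexes with B-MYB and FOXM1 time the mitotic genes through CCAAT boxes and cell cycle homology regions in their promoters.

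The sequences just before the start sites of 4 genes are printed because these genes lead the lists on which the first comparison turns. Cdk1 (the kinase that drives entry into mitosis) and Pclaf (a PCNA-binding protein) had the largest ratios with a promoter entry in the mitosis and G2 list, Rrm2 (a subunit of ribonucleotide reductase, which makes DNA precursors) in the S phase list, and Btg2 (an antiproliferative gene) fell most among the cell cycle brakes. Each is the 150 bases before the start in RefSeq's GRCm38.p6 table, 5′ to 3′ on the gene's own strand. Capitals mark CCAAT boxes (CCAAT), cell cycle homology regions (TTTGAA or TTCGAA) and E2F sites (TTTGGCGC, TTTCGCGC, TTTCCCGC or TTTGCCGC), each searched on both strands. No 2 marked motifs overlap in these 4 windows. The same stretch before Tk1, another gene of the S phase list, was also searched, held none of these motifs and is not printed.
Cdk1 (chr10:69352913-69353062, minus strand): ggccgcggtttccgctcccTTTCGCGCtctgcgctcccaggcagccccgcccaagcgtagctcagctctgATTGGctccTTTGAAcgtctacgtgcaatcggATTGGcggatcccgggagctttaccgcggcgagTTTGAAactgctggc
Pclaf (chr9:65890173-65890322, plus strand): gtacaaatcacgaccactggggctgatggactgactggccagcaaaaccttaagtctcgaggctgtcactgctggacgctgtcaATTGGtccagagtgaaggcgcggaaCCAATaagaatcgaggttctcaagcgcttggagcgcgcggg
Rrm2 (chr12:24708104-24708253, plus strand): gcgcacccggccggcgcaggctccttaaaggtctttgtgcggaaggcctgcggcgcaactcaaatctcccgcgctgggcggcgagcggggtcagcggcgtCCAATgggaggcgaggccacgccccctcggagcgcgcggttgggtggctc
Btg2 (chr1:134079156-134079305, minus strand): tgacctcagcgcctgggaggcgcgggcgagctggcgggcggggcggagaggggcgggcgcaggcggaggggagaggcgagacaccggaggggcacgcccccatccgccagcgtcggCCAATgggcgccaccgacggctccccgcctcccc

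The Cdk1 window holds all 3 kinds of motif: an E2F site, a pair of CCAAT boxes on the opposite strand and a pair of cell cycle homology regions. Pclaf, Rrm2 and Btg2 hold CCAAT boxes and neither other motif. Btg2 was lower in cycling than in resting Treg, while Cdk1, Pclaf and Rrm2 were higher. Over the 250 bases before the start, 23 of the 28 mitosis and G2 genes in the table (82.1%) held a CCAAT box. This compares with 37.5% of all 27025 genes and 40.4% of those tested below. The box was also in 10 of 16 cell cycle brakes and G1 regulators (62.5%) and 14 of 25 S phase genes (56.0%). A cell cycle homology region was in 11 mitosis and G2 genes (39.3%), against 19.6% of all genes and 14.9% of those tested. Of the 25 S phase genes in the table, 8 (32.0%) held an E2F site, against 2.16% of all genes and 5.07% of those tested below. A match is a description of letters and not a measured binding site.

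The gate was first checked against RNA it did not use. The 6 Treg markers on the list other than Foxp3 all had UMIs in the class, and their summed level ran from 2856.3 to 5511.4 CPM over the mice, against 4118.3 to 5746.4 CPM in resting Treg and 569 to 1261.2 CPM in cycling CD8 cells. A Cd4 UMI was seen in 137 of the 183 cells, although the protocol describes a CD8+ sort. Of 8 myeloid markers, Lyz2, Csf1r, C1qa and C1qb were at 0 and 4 had UMIs; their summed level was 157 to 339 CPM over the mice, against 148 to 1137 CPM in resting Treg and 137 to 1071.9 CPM in cycling CD8 cells. Most of it was Cst3 (cystatin C), seen in 128 cells (69.9%), and Cd68 was seen in 11 (6.01%). Of 5 CD8 T cell markers, Cd8a and Cd8b1 were at 0 by the gate. Their list summed to 605 to 2321.5 CPM, against 918 to 4354.2 CPM in resting Treg and 4345.2 to 8719.1 CPM in cycling CD8 cells. Nkg7 was seen in 135 cells (73.8%), Ccl5 in 128 (69.9%) and Gzmk in 6 (3.28%). The 5 NK cell markers summed to 0 to 64.5 CPM, against 0 to 106 CPM in resting Treg and 87.5 to 268 CPM in cycling CD8 cells. All 3 measured gamma delta T cell markers were at 0. The summed B cell markers ran from 11.9 to 630.0 CPM over the mice (median 57.9). They ran from 12.7 to 187 CPM in resting Treg (median 67.2) and 11.5 to 63.6 CPM in cycling CD8 cells (median 35.4). Igkc was seen in 24 cycling Treg (13.1%) and Cd79b in 21 (11.5%). In resting Treg these were 7.78% and 5.09% of cells, and in cycling CD8 cells 12.8% and 4.26%. The part of these other lineage markers in the results was not tested. Scrublet marked 3 of the 183 cells (1.64%) as likely doublets.

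The demand for no Cd8 UMI removed a share of Treg. Another 128 cells with Foxp3 and a cycle gene held Cd8a or Cd8b1, and 73 of them held exactly 1 such UMI. Among cells with at least 2 Foxp3 UMIs and a Cd4 UMI, Cd8 UMIs occurred in 39.7% of 199 cycling ones and 33.6% of 217 resting ones, at median depths of 11565 and 5144 UMIs. In the other direction, Foxp3 UMIs were found in 1.56% of 4934 CD8 cells (at least 3 Cd8 UMIs, no Cd4; 95% exact binomial interval 1.23 to 1.95%, counting error only), at a median of 4083.5 UMIs.

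The 183 cells differed widely in their cell cycle RNA. In 100 cells with at least 2 UMIs of Mki67 and Top2a together, the summed S phase and G2/M lists had a median of 16427.2 CPM per cell, near the 15536.9 CPM of cycling CD8 cells. In the other 83 cells, which held exactly 1 such UMI and so lie just inside the gate, the median was 2787.6 CPM. Resting Treg, just outside it with none, had 2519.8 CPM. Most of the 83 cells thus lay close to resting Treg in these genes. The groups overlap: the 10th percentile was 3843.5 CPM in the 100 cells, and the 90th was 6935.5 CPM in the 83. The 83 cells were also shallower, with a median of 4325 UMIs against 11960.5 UMIs in the 100 and 3714.5 UMIs in resting Treg. These values describe the gate, which used both genes, and were given no test.

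**Figure D1:**
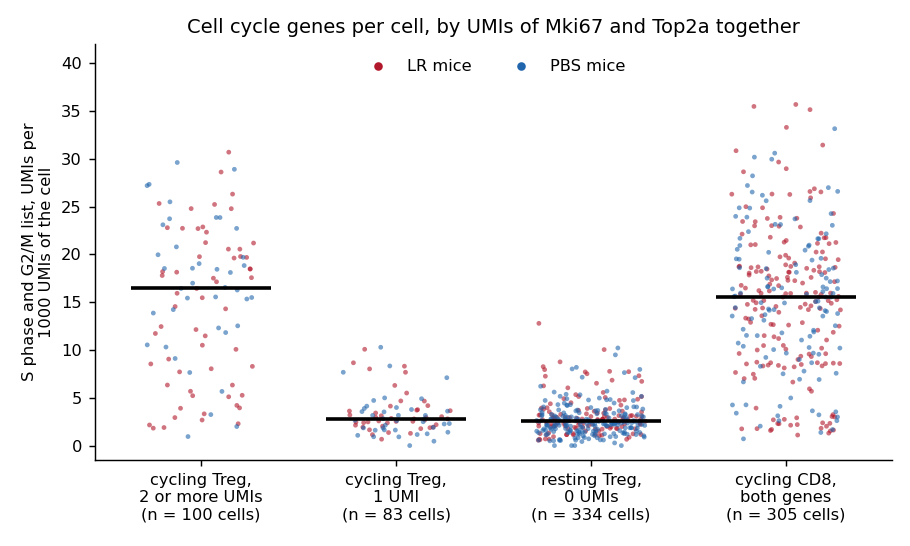
UMIs of the S phase and G2/M gene lists per 1000 UMIs of the same cell (vertical axis), 1 point a cell, red for LR and blue for PBS mice, with a black line at each median. The 100 cycling Treg with at least 2 UMIs of Mki67 and Top2a lie mostly with the cycling CD8 cells, and the 83 with 1 UMI lie mostly with resting Treg.

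The 2 groups were spread unevenly over mice. Cells with at least 2 such UMIs were 57.1%, 53.3%, 50% and 66.7% of the class in LR mice 1 to 4, and 63.2%, 72.0%, 28.6% and 28.6% in PBS mice 6 to 9. PBS mice 8 and 9 stood lowest, and PBS mouse 9 gave 2 such cells of 7. Cell numbers per mouse were 7, 45, 16 and 36 in LR mice and 19, 25, 28 and 7 in PBS mice, so LR mouse 1 and PBS mouse 9 rest on 7 cells each. Depth differed between classes: the median was 8215 UMIs and 2766 genes in cycling Treg, 3714.5 and 1678 in resting Treg, and 12450.0 and 3488 in cycling CD8 cells.

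Against resting Treg, many tested genes of DNA replication, mitosis, glycolysis and the respiratory chain were higher in the class. Many genes of cell cycle brakes, cytokine signalling, homing receptors and the immediate early list were lower. Summed counts per mouse were tested with edgeR's quasi-likelihood test with mouse as a block, without the 5 gate genes, and a gene was called at an adjusted p (Benjamini-Hochberg over all genes tested) of 0.05 or less. Of 3314 genes tested, 481 (14.5%) were higher and 415 (12.5%) were lower in cycling Treg, and the median log2 ratio was −0.02. With every cell thinned to 2000 UMIs, 753 genes could be tested, and 57 (7.57%) were higher and 51 (6.77%) lower, of which 55 and 51 were among the calls above.

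Genes of DNA synthesis rose. Rrm2 had a lowest, median and highest level of 72.6, 203 and 383 CPM over the 8 mice in cycling Treg, against 0, 5.34 and 27.9 CPM in resting Treg. The classes did not overlap, and PBS mouse 9 was the lowest of the cycling ones. Its log2 ratio was 4.61 ± 0.26 (SE; edgeR adjusted p = 2.53e-12, higher in 8 of 8 mice). Tk1 (thymidine kinase) had a log2 ratio of 3.73 ± 0.25, Mcm5 (a subunit of the replicative helicase) 2.40 ± 0.22 and Pcna (the polymerase clamp) 1.77 ± 0.18, all called. Of 30 S phase genes, 17 passed the filter on low counts and all 17 were called higher; since genes that low in resting Treg pass mainly through their level in cycling cells, and since the gate picks cells in these phases, this count describes the gate.

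Mitotic genes followed the same pattern. Cdk1 had 48.4, 128 and 213 CPM in cycling Treg (lowest, median and highest mouse) and 0, 3.72 and 12.7 CPM in resting Treg, with no overlap and a log2 ratio of 4.31 ± 0.31 (edgeR adjusted p = 7.82e-11). Pclaf had 72.6, 457 and 808 CPM against 7.74, 19.9 and 59.2 CPM, again without overlap (log2 ratio 4.48 ± 0.19). Birc5 (survivin, of the chromosomal passenger complex) and Stmn1 (a microtubule destabiliser) had log2 ratios of 3.51 ± 0.26 and 3.31 ± 0.22. Of 36 mitosis and G2 genes, 16 passed the filter and all 16 were called higher. Of 14 histone genes, 4 passed and all 4 were higher, among them Hist1h1b (linker histone) at 3.27 ± 0.22. As for the S phase genes, these counts describe the gate and the filter.

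Between phases, the summed G2 list had 2760.4, 9802.8 and 14749.7 CPM over the mice, and the S phase list 2757.6, 3672 and 4619.8 CPM. The ratio of S phase to G2 list had a median of 0.368, against 0.362 in resting Treg and 0.426 in cycling CD8 cells, and it reached 1.36 in PBS mouse 9. The spread over mice of these ratios overlaps between all 3 classes.

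Among brakes and regulators of G1, 6 of 14 tested genes fell and 1 rose, against 12.5% lower and 14.5% higher of all genes tested. Btg2 had 35.6, 67.2 and 145 CPM in cycling Treg, against 134, 248 and 289 CPM in resting Treg. LR mouse 4 set the upper end in cycling Treg, and it alone overlapped the resting range. The log2 ratio was −1.67 ± 0.17 (edgeR adjusted p = 6.28e-08, lower in 8 of 8 mice). Its relative Btg1 fell too (−0.98 ± 0.11), as did Pdcd4 (an inhibitor of translation, −1.04 ± 0.19) and Cdkn1b (the inhibitor p27 of cyclin-dependent kinases, −0.72 ± 0.15). Cdk4, the kinase that opens G1, rose (1.19 ± 0.19), while Ccnd2, its cyclin D2 partner, fell (−0.46 ± 0.13). Outside the lists, Txnip, which restrains glucose uptake, was among the genes that fell most with no exception in any mouse (−1.45 ± 0.16, edgeR adjusted p = 1.73e-07).

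Of 9 tested genes of amino acid transport and one-carbon metabolism, 4 were called higher and 0 lower, against 14.5% and 12.5% of all genes. Phgdh, which encodes the first enzyme of serine synthesis, had 160.0, 335 and 396 CPM in cycling Treg and 37.2, 76.9 and 134 CPM in resting Treg. No mouse overlapped, and the log2 ratio was 1.81 ± 0.18 (edgeR adjusted p = 2.67e-08). Psat1 and Shmt2, later enzymes of serine and one-carbon metabolism, rose by log2 ratios of 1.49 ± 0.19 and 1.11 ± 0.27.

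Glycolysis and respiration rose by smaller steps. Ldha (lactate dehydrogenase) had 2033.9, 2626.7 and 4061.7 CPM in cycling Treg, against 1407.5, 1718.1 and 2695.5 CPM in resting Treg. The ranges overlap, but Ldha was higher in cycling Treg in each of the 8 mice (log2 ratio 0.62 ± 0.06, edgeR adjusted p = 1.87e-08). Of 14 tested glycolysis genes, 8 were called higher and 1 lower, against 14.5% and 12.5% of all genes tested. The lower one was Slc2a1, the glucose transporter GLUT1 (−0.64 ± 0.19, a call lost without PBS mouse 6). Of 18 respiratory chain genes, 8 were called higher and 0 lower, against the same shares. Cycs (cytochrome c, 0.94 ± 0.15) and Atp5g1 (an ATP synthase subunit, 0.91 ± 0.15) led these. None of 7 tested genes of lipid and cholesterol synthesis was called in this edgeR fit.

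Of 10 tested Treg identity genes, 2 fell and 0 rose, against 12.5% lower and 14.5% higher of all genes tested, so that these counts are near the background. Foxp3, a gate gene and so not tested, had 358, 484 and 605 CPM in cycling Treg and 526, 672 and 882 CPM in resting Treg. Every cell of both classes had to hold a Foxp3 UMI, and 1 UMI is a larger CPM in a shallower cell. Median depth was 8215 UMIs in cycling and 3714.5 UMIs in resting Treg. The Foxp3 levels thus in part describe the gate and give no difference between the classes. Ctla4 had 881, 1034.8 and 1879.2 CPM against 1045, 1298.1 and 1906.3 CPM, overlapping almost wholly, and was not called (log2 ratio −0.18 ± 0.10, edgeR adjusted p = 0.205). Ikzf2, which encodes Helios, had 337, 487 and 626 CPM against 367, 534 and 859 CPM (−0.16 ± 0.11, edgeR adjusted p = 0.299). Il2ra (CD25) was also not called (−0.07 ± 0.20). The 2 that fell were Tnfrsf18 and Izumo1r. Tnfrsf18 (the receptor GITR) had 504, 789 and 1211.4 CPM against 1001.5, 1134.2 and 1569.9 CPM, lower in 8 of 8 mice with overlapping ranges (−0.46 ± 0.10), and Izumo1r (folate receptor 4) had a log2 ratio of −0.79 ± 0.17. The call on Tnfrsf18 was lost when resting Treg could hold Cd8 UMIs (edgeR adjusted p = 0.0563). With at least 2 cycle UMIs asked for, an alternative chosen after the data were seen that left 94 cells in 6 mice, 4 of 10 identity genes fell, against 16.9% of all 3426 genes tested, and Ctla4 was then among them (log2 ratio −0.35 ± 0.10, edgeR adjusted p = 0.00871). Cd4 had 96.9, 196 and 231 CPM in cycling Treg, against 233, 271 and 326 CPM in resting Treg, without overlap (−0.51 ± 0.14, edgeR adjusted p = 0.00652).

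Of 11 tested suppressive products, 1 fell, against 12.5% of all genes tested. With at least 2 cycle UMIs asked for, 5 of 11 fell, where 16.9% of all genes did. The 1 that fell with the gate as given was Gzmb, which encodes the killer protease granzyme B. Gzmb had 169, 339 and 529 CPM in cycling Treg and 288, 655 and 1718 CPM in resting Treg. The ranges overlap, with LR mouse 1 highest among resting ones, and the log2 ratio was −1.01 ± 0.20 (edgeR adjusted p = 0.000629, lower in 7 of 8 mice). Il10 (interleukin-10), Tgfb1 (transforming growth factor beta), Areg (amphiregulin) and Tigit (a checkpoint receptor), named after their values were seen, had log2 ratios of −0.33 ± 0.22, 0.14 ± 0.15, −0.30 ± 0.30 and −0.29 ± 0.12, none of them called.

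Several receptors that receive other signals were lower. Il7r, the receptor for interleukin-7, had 89.6, 208 and 477 CPM in cycling Treg and 348, 523 and 889 CPM in resting Treg. It was lower in 8 of 8 mice although the ranges overlap (−1.27 ± 0.15, edgeR adjusted p = 5.29e-07). Of 12 tested genes of cytokine signalling, 7 fell and 0 rose, against 12.5% and 14.5% of all genes tested. Socs3, a feedback inhibitor of JAK kinases, was among those that fell (−1.63 ± 0.23). Of 8 costimulatory receptors, 4 fell, against the same 12.5%. These were Tnfrsf9 (4-1BB, −0.56 ± 0.13), Cd27 (−0.53 ± 0.14), Tnfrsf1b (TNF receptor 2, −0.43 ± 0.15) and Icos (−0.40 ± 0.13). The calls on Icos and Tnfrsf1b were lost with DESeq2 and without the block; that on Icos also without LR mouse 1, LR mouse 3, PBS mouse 7 or PBS mouse 8, and that on Tnfrsf1b without LR mouse 3 or PBS mouse 6, 7 or 8. That on Tnfrsf9 was lost when resting Treg could hold Cd8 UMIs (edgeR adjusted p = 0.0581), and with at least 2 cycle UMIs asked for 7 of the 8 receptors fell, against 16.9% of all genes. Tnfrsf4 (OX40) had a log2 ratio of −0.32 ± 0.13 and was not called.

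Several homing and effector genes were lower too. Klf2, a factor that keeps T cells in circulation, had 11.9, 97.3 and 266 CPM in cycling Treg, against 196, 264 and 800.0 CPM in resting Treg. PBS mouse 9 was the highest of the cycling ones and overlapped the resting range, yet Klf2 was lower in 8 of 8 mice (−1.80 ± 0.21, edgeR adjusted p = 4.60e-07). Of 11 tested homing and chemokine receptors 5 fell and 0 rose, against 12.5% lower and 14.5% higher of all genes tested. Ccr2 was among those that fell (−1.04 ± 0.17). Ccr8, a receptor typical of tumour Treg, had 85.1, 243 and 463 CPM against 178, 308 and 468 CPM and was not called (−0.36 ± 0.20). Of 15 tested effector Treg transcription factors, among which Klf2 was listed, 4 fell and 0 rose, against the same shares of all genes.

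Immediate early genes, which also respond to tissue dissociation, were lower in cycling Treg. Junb had 678, 748 and 1015.1 CPM in cycling Treg and 848, 1499.4 and 2132.7 CPM in resting Treg. It was lower in 8 of 8 mice (−0.89 ± 0.10, edgeR adjusted p = 1.10e-07). Of 10 tested genes of this list 7 fell and 1 rose, against 12.5% lower and 14.5% higher of all genes tested. Zfp36 and Dusp1, which shut off inflammatory messages and kinases, had log2 ratios of −1.09 ± 0.14 and −0.87 ± 0.10. Of 5 interferon response genes, 3 fell, against the same 12.5%, among them Irf7 (−0.92 ± 0.23). Whether handling had a part in these differences was not tested.

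Metabolic and receptor lists had fewer calls at equal depth. With cells thinned to 2000 UMIs, 2 of 9 testable glycolysis genes and 1 of 12 respiratory chain genes were higher, against 7.57% of all genes. Ldha was still called (log2 ratio 0.52, edgeR adjusted p = 0.000997). Of the amino acid and one-carbon list 1 gene could be tested and was not called (−0.13), and Phgdh, Psat1 and Shmt2 were too sparse. Of the receptor lists, 1 of 7 costimulatory, 1 of 4 homing and 1 of 6 cytokine signalling genes fell, against 6.77% of all genes, while 5 of 8 immediate early genes did. The calls on Cd4, Tnfrsf18, Cd27, Icos, Cdkn1b and Ccnd2 were lost, with the log2 ratio of Tnfrsf18 at −0.28 (edgeR adjusted p = 0.175) and that of Cd4 at −0.27 (edgeR adjusted p = 0.504). Fewer UMIs remain after thinning, and whether depth or the loss of counts ended these calls was not tested.

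**Figure D2:**
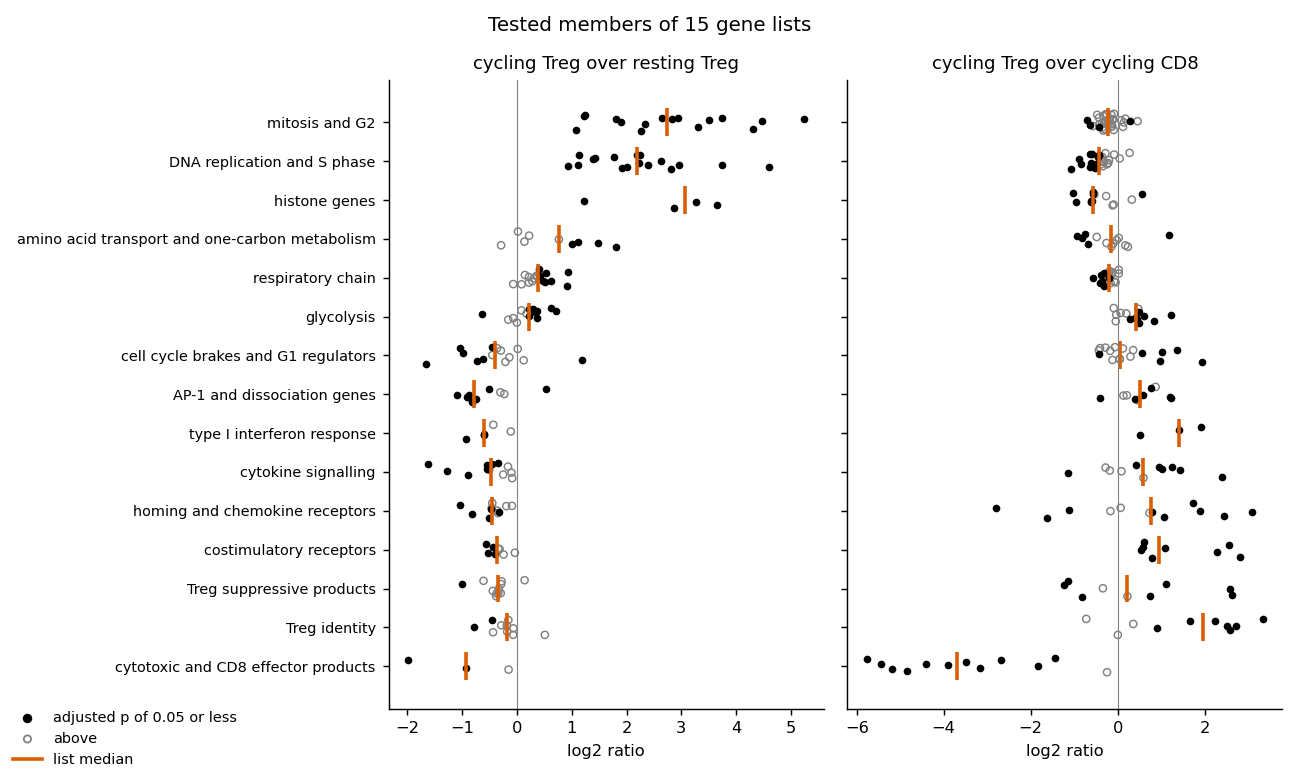
Log2 ratios (horizontal axes) of the tested members of 15 gene lists, 1 point a gene, filled at an edgeR adjusted p of 0.05 or less and open above it, with the list median in orange. In the left panel the cycle lists lie to the right of 0, with all 16 tested mitosis and G2 genes filled, and most receptor lists lie slightly to the left; in the right panel Treg identity lies far right and cytotoxic products far left.

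Set against cycling CD8 cells of the same tumours, cycling Treg differed most in lineage genes. Of 4641 genes tested, 644 (13.9%) were higher and 599 (12.9%) lower in cycling Treg, with a median log2 ratio of −0.02. The gates differ, since the CD8 class had to hold both cycle genes and the Treg class either. Needing both in both classes left 72 cycling Treg in the 6 mice with at least 5 such cells. Of 4145 genes tested then, 331 (7.99%) were higher and 258 (6.22%) lower, and 294 and 232 of these were among the calls above.

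Genes of the Treg lineage were higher in cycling Treg. The classes were split on Foxp3, Cd8a and Cd8b1, so this direction in part describes the gate. Ctla4 had 881, 1034.8 and 1879.2 CPM in cycling Treg and 112, 144 and 287 CPM in cycling CD8 cells, without overlap (log2 ratio 2.72 ± 0.10, edgeR adjusted p = 1.10e-14). Ikzf2 had 337, 487 and 626 CPM against 55.7, 80 and 124 CPM (2.50 ± 0.12), and Ccr8 had 85.1, 243 and 463 CPM against 16.4, 32 and 39.5 CPM (3.08 ± 0.21). Each of these 3 genes separated the classes in every mouse. Of 10 tested identity genes, 7 were higher and 0 lower, and all 8 tested costimulatory receptors were higher, against 13.9% of all genes. Members that are low in cycling CD8 cells pass the filter on low counts mainly through cycling Treg. These counts thus in part describe the gate and the filter. Icos led these receptors, with 226, 498 and 847 CPM against 47.2, 61.4 and 97.4 CPM (2.82 ± 0.19). With both cycle genes needed in both classes, 7 of 9 identity genes and 5 of 8 costimulatory receptors were higher, against 7.99% of all genes. Tnfrsf9 and Cd27 were then no longer called.

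Of transcription factors tied to effector Treg, 9 of 18 were higher and 5 lower in cycling Treg, against 13.9% and 12.9% of all genes. Maf, a factor for interleukin-10 expression in T cells, had 145, 177 and 291 CPM against 3.35, 5.53 and 16.3 CPM, with PBS mouse 9 highest and no overlap (4.53 ± 0.23, edgeR adjusted p = 3.57e-12). A gene this low in cycling CD8 cells passes the filter mainly through its level in cycling Treg. Gata3 and Prdm1 (Blimp-1) had log2 ratios of 1.96 ± 0.19 and 1.63 ± 0.18. Outside the lists Klrg1, a receptor of differentiated Treg and effector cells, was among the 6 highest (3.17 ± 0.23).

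Killer genes were lower. Gzmk, which encodes granzyme K, had 0, 4.45 and 11.9 CPM in cycling Treg and 192, 281 and 442 CPM in cycling CD8 cells (−5.76 ± 0.26, edgeR adjusted p = 5.39e-13). Eomes, a factor of killer lymphocytes, had a log2 ratio of −5.19 ± 0.32 and Xcl1, a chemokine for cross-presenting dendritic cells, −4.84 ± 0.27. Nkg7, a granule membrane protein, had 309, 829 and 1179.3 CPM in cycling Treg against 1712.6, 2103.9 and 2541.1 CPM, without overlap (−1.45 ± 0.16), so that it was lower but far from absent. Of 12 tested cytotoxic products, 11 were lower under either gate, against 12.9% of all genes with the gates as given and 6.22% under the matched gate. Between the Treg classes, 3 genes of this list passed the filter on low counts. Most members thus pass here through their level in cycling CD8 cells, and this count in part describes the filter.

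S phase and histone genes of the classes were closer under the matched gate, and mitosis and G2 genes were further apart. With the gates as given, 14 of 27 S phase genes and 7 of 13 histone genes were lower in cycling Treg, against 12.9% of all genes. The list medians were −0.43 and −0.56. With both cycle genes needed in both classes, 1 and 0 were lower, against 6.22% of all genes, with medians of −0.07 and 0.16. Of 35 mitosis and G2 genes 8 were then higher (median 0.38), against 7.99% of all genes, where 1 was higher and 3 were lower before. Pclaf shows the change: its log2 ratio was −0.63 ± 0.14 with the gates as given and −0.12 ± 0.11 (edgeR adjusted p = 0.557) with both needed. Glycolysis kept its direction. In cycling Treg 8 of 14 genes were higher, and 6 of 14 under the matched gate, against 13.9% and 7.99% of all genes. Pkm (pyruvate kinase) had log2 ratios of 0.84 ± 0.08 and 0.74 ± 0.08 under the 2 gates.

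**Figure D3:**
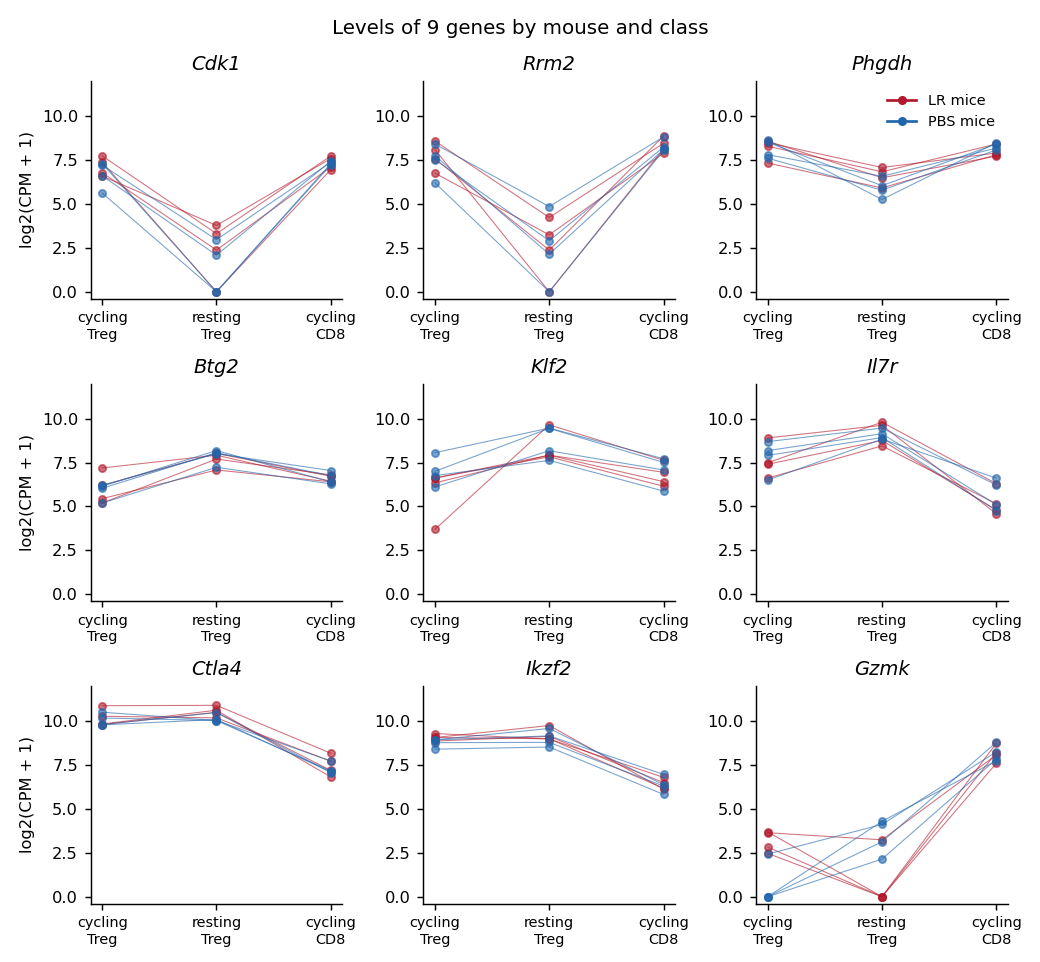
Levels of 9 genes as log2(CPM + 1) (vertical axis) in cycling Treg, resting Treg and cycling CD8 cells, 1 line a mouse, red for LR and blue for PBS. Cdk1 and Rrm2 are high in both cycling classes and lower in resting Treg. Btg2, Klf2 and Il7r are higher in resting than in cycling Treg. Ctla4 and Ikzf2 are at like levels in both Treg classes, and Gzmk is high in the CD8 class.

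The step from resting to cycling was compared between lineages as a difference of log2 ratios, cycling over resting in Treg minus the same in CD8 cells. Of 5578 genes tested, 309 (5.54%) had a larger and 154 (2.76%) a smaller ratio in Treg. The gates differ here too: cycling Treg held either cycle gene and cycling CD8 cells both. Of the 183 cycling Treg, 83 held 1 cycle UMI and mostly lay close to resting Treg in cell cycle genes. A matched gate was not run for this comparison, so the part of the gate in these differences was not tested. Il7r was among the larger ones, with a ratio less far below 0 in Treg, at −1.37 in Treg and −3.13 in CD8 cells on the log2 scale (fitted difference 2.27 ± 0.33, edgeR adjusted p = 1.77e-05). Gzmb and Tnfrsf9 were among the smaller ones: Gzmb had −1.23 in Treg and 1.30 in CD8 cells (fitted difference −2.13 ± 0.52, edgeR adjusted p = 0.00803), and Tnfrsf9 had −0.54 in Treg and 1.30 in CD8 cells (fitted difference −1.74 ± 0.29). None of 27 S phase genes and 1 of 35 mitosis and G2 genes differed in this edgeR fit. These differences also depend on which CD8 cells are compared. With both CD8 classes limited to cells with a UMI of Pdcd1, the checkpoint receptor PD-1 (254 cycling and 1261 resting cells), 6 genes had a larger and 2 a smaller ratio in Treg of 5234 tested. The fitted difference of Il7r was then 1.45 ± 0.38 (edgeR adjusted p = 0.0839) and that of Gzmb −1.34 ± 0.40 (edgeR adjusted p = 0.143). The 2 genes that were still smaller were Plac8, a gene of lymphocyte differentiation (−1.98 ± 0.43), and Csrp2; these and the 6 others were read after their values were seen.

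Cycling cells made up 46.7%, 47.9%, 45.7% and 39.6% of all Treg in LR mice 1 to 4, and 40.4%, 28.4%, 26.7% and 16.7% in PBS mice 6 to 9. PBS mouse 6 fell among the LR mice and the other 3 PBS mice below them. The means were 45.0% ± 3.70 in LR and 28% ± 9.74 in PBS mice (SD, n = 4 each; difference 16.9 percentage points, 2-sided exact permutation p = 0.0571). The smallest p this design allows is 0.0286, and the difference did not pass the threshold. Thinned to 2000 UMIs per cell, the share averaged 25.7% ± 3.37 in LR mice, against 18.3% ± 5.97 in PBS mice, with an exact permutation p of 0.0857. With at least 2 cycle UMIs asked for, they were 31.6% ± 1.83 and 16.8% ± 11.4 (exact permutation p = 0.0571). Without PBS mouse 6 the LR mean was 45.0% and the PBS mean 23.9%, at an exact permutation p of 0.0286, which 4 against 3 mice give where no value overlaps.

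**Figure D4:**
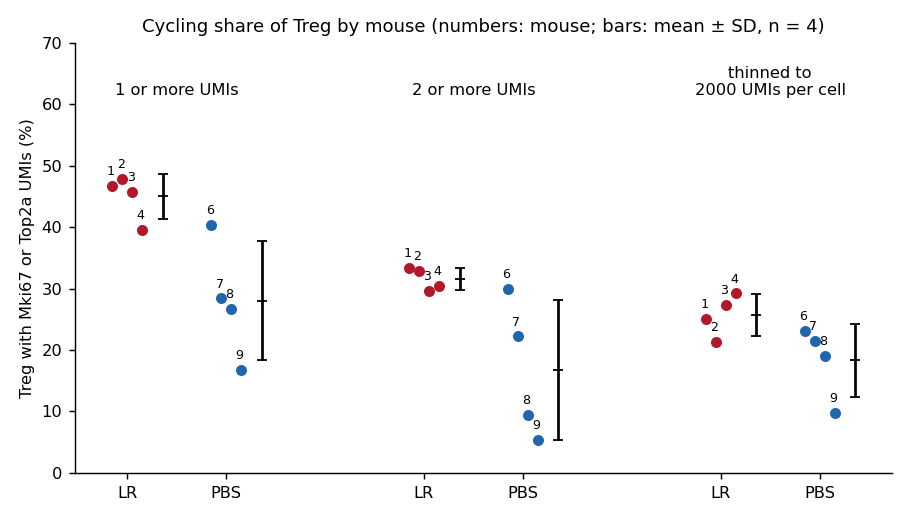
Share of Treg with UMIs of Mki67 or Top2a in percent (vertical axis) for each mouse, LR left of PBS, numbered by mouse, with mean ± SD over 4 mice, under the gate as given, with at least 2 UMIs asked for, and after thinning to 2000 UMIs per cell. LR mice lie between 39.6% and 47.9% under the gate as given, and PBS mouse 6, at 40.4%, lies among them.

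Within cycling Treg, no gene was called between LR and PBS mice. Of 3492 genes tested, 0 (0%) were called higher and 0 (0%) lower by edgeR, and DESeq2 called 0 as well; 85 and 52 had an unadjusted p under 0.05. The mice did not overlap in 44 genes (1.26%) that were higher and 31 (0.888%) that were lower in LR mice. The summed S phase and G2/M lists overlapped, with 14987.8, 12603.7, 16366.2 and 11233 CPM in LR mice 1 to 4 and 18340.6, 15752.5, 10387.4 and 6513.5 CPM in PBS mice 6 to 9. Foxp3, which the gate asks of every cell, had 492 ± 63.8 CPM in LR and 476 ± 107 CPM in PBS mice.

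Plac8 was too sparse for that test but showed a split. It had 83.1, 52.1, 72.9 and 42 CPM in cycling Treg of LR mice 1 to 4 and 0, 7.17, 0 and 0 CPM in PBS mice 6 to 9. The UMIs came from 18 of 104 cells (53 UMIs) in LR mice and 2 of 79 cells (2 UMIs) in PBS mice. In resting Treg, where Plac8 was higher (log2 ratio of cycling over resting −2.10 ± 0.35), the same mice overlapped, at 237, 96.1, 107 and 139 CPM in LR and 102, 191, 120.0 and 170.0 CPM in PBS mice. With no filter on low counts its LR over PBS log2 ratio was 4.16 ± 0.68 (edgeR adjusted p = 2.53e-06). That fit called 10 genes higher and 13 lower of 12665 tested. One of the lower genes was Cd79a (−5.35 ± 1.2, edgeR adjusted p = 0.00755), which had UMIs in 1 of the 183 cells. A small p in that fit can thus rest on very few cells. For Plac8 the edgeR adjusted p ran from 0.0491 to 0.195 in the 5 fits without 1 mouse that tested it. Plac8 was looked at in that comparison after its values were seen.

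Among CD4 T cells (a Cd4 UMI, no Cd8 UMI), Treg made up a larger share of the cycling ones at the depth sequenced. Since the labels leave the sort unclear, these shares are of the CD4 cells captured and may not stand for all CD4 cells of the tumours. Foxp3 was found in 137 of 279 cycling CD4 cells (49.1%) and 199 of 1430 resting ones (13.9%). Per mouse the means were 52.2% ± 22.6 in cycling and 18% ± 9.23 in resting cells, higher in 8 of 8 mice (2-sided exact permutation p = 0.00781 over sign changes, the smallest possible). Read the other way, 40.1% ± 14.6 of CD4 Treg and 10.6% ± 3.65 of Foxp3-negative CD4 cells were cycling (exact permutation p = 0.00781, 8 of 8 mice). The classes differ in depth. After thinning to 2000 UMIs the shares of Treg were 27.0% ± 22.7 in cycling and 16.2% ± 8.54 in resting cells, higher in 6 of 8 mice (exact permutation p = 0.117). The shares of cycling cells were then 18.1% ± 11.9 of CD4 Treg and 9.41% ± 3.0 of Foxp3-negative CD4 cells, higher in 6 of 8 mice (exact permutation p = 0.0703). Neither difference passed the threshold at equal depth.

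The T cell receptor genes of cycling Treg were diverse. A leading beta variable segment could be assigned in 165 of 183 cells, with 21 segments in use, and Trbv13-2 was the most frequent with 35 cells (21.2%). Of 141 cells with both an alpha and a beta segment, 19 (13.5%) shared the pair with another cell of the same class and mouse, against 43 of 222 (19.4%) in resting Treg and 131 of 220 (59.5%) in cycling CD8 cells. The largest group with 1 pair held 3 cells in cycling Treg, 3 in resting Treg and 16 in cycling CD8 cells. Segments are read from gene counts and not from full receptor sequences, and classes of different size and depth were not tested against each other.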

How the data were processed

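Single-cell UMI counts were deposited by the authors as 1 matrix of 16969 barcodes by 32285 genes with 9 hashtags, made with Cell Ranger 4.0.0 on GRCm38, per the submitters' processing notes; the counts are raw and not normalized. Mice were read from hashtag names; LR mouse 5 had a hashtag (5699 UMIs) and 0 assigned cells. After cell filters 14474 barcodes were left, and 10713 had 1 hashtag. Scrublet marked 3.34% of these; they were kept. UMIs were summed per mouse and class (at least 5 cells) and tested with edgeR 4.0.16 in R 4.3.3 (quasi-likelihood, TMM, filterByExpr), DESeq2 1.42.0 being an alternative, and shares by exact permutation in Python 3.11.15. The code was checked on simulated counts. Classes of the same mouse share that animal, so mouse was a block; mouse numbers do not pair LR with PBS mice. Intervals cover counting error only. Members, lists and named genes were chosen with earlier results of these data known. From each list, named genes were up to 4 tested members with the largest change, plus up to 6 outside the lists in each direction; Mcm5, Pcna, Birc5, Stmn1, Il10, Tgfb1, Areg and Tigit were added after their values were seen. Promoter sequences came from RefSeq's GRCm38.p6 table.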

Additional observations from a re-analysis of the deposited data

Results flagged for a closer look

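Of 45 sets of 8 mouse values given by gene and class, 6 had 1 mouse far from the others. For independent, normally spread sets the rule used would flag about 1 in 20. These sets share mice and some rest on few cells, so whether 6 is more than chance gives was not tested. In cycling Treg these were Btg2 in LR mouse 4 at 145 CPM, and Klf2 at 266 CPM and Maf at 291 CPM in PBS mouse 9, which rests on 7 cells. In resting Treg, LR mouse 1, with 8 cells, stood highest for Pclaf at 59.2 CPM, Ldha at 2695.5 CPM and Tnfrsf18 at 1569.9 CPM.

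The step from resting to cycling differed between Treg and CD8 cells for 4 genes named here, each as a fitted difference of log2 ratios with an edgeR adjusted p. The log2 ratio of cycling over resting was less far below 0 in Treg than in CD8 cells for Il7r (2.27, adjusted p = 1.77e-05). It was lower in Treg for Plac8 (−2.42, adjusted p = 0.000506), Gzmb (−2.13, adjusted p = 0.00803) and Tnfrsf9 (−1.74, adjusted p = 8.84e-05). With CD8 cells limited to those with a Pdcd1 UMI, the call on Plac8 was kept (adjusted p = 0.0449) and the other 3 were lost. Cycling Treg needed either cycle gene and cycling CD8 cells both, and the part of this in the differences was not tested.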

How the results depend on the processing

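Of 86 called gene results in the first 2 comparisons, 62 kept direction and call under every alternative that tested them, and 3 changed sign, all against cycling CD8 cells with both cycle genes needed: Btg1 (−0.11), Tk1 (0.11) and Hist1h1b (0.16). Settings differ in the number of genes tested, so the percentage of these follows each count. For cycling over resting Treg (14.5% higher and 12.5% lower in the main fit), 762 (5.53%) were higher with no filter. With all 4 classes in 1 fit 778 (13.9%) were higher, and after thinning 57 (7.57%). With DESeq2 248 (7.48%) were lower, and after thinning 51 (6.77%). Against cycling CD8 cells (13.9% higher and 12.9% lower in the main fit), 331 (7.99%) were higher and 258 (6.22%) lower with both cycle genes needed. With at least 2 cycle UMIs they were 391 (8.78%) and 313 (7.03%), and after thinning 173 (18.6%) and 159 (17.1%). With no filter 1019 (7.04%) were lower, and at 90% of hashtag UMIs 359 (9.7%). For the difference between lineages (5.54% larger and 2.76% smaller in the main fit), 149 (8.83%) were larger and 86 (5.09%) smaller in Treg after thinning. With Pdcd1-positive CD8 cells 6 (0.115%) and 2 (0.0382%) were. Without the mouse block that pairs the classes, 461 (13.9%) were higher and 374 (11.3%) lower over resting Treg, and 617 (13.3%) and 524 (11.3%) against CD8 cells. For the difference 233 (4.18%) were then larger and 82 (1.47%) smaller. Between LR and PBS mice no filter gave 10 (0.079%) higher and 13 (0.103%) lower. Thinning brought the share of Treg among CD4 cells, cycling minus resting, to 10.8 points and the share of cycling, Treg minus other CD4 cells, to 8.65 points. Leaving out 1 mouse gave 319 (without PBS mouse 7) to 514 higher genes over resting Treg, 81 (without PBS mouse 7) to 168 smaller differences, 0 to 1 calls in each direction between LR and PBS mice, and a difference in cycling share of 13.1 to 21.0 points. Other than where the alternative itself has fewer genes, cells or UMIs, the cause was not tested. Few cells per mouse limit all LR and PBS comparisons.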
